A study of Mus musculus with 32 samples.

Results

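The brain endothelium lines the capillaries of the brain, and its cells seal the space between them with tight junctions, move nutrients in through carriers and pump foreign compounds back into the blood. The 10 genes described here were chosen by name as tight junction, transporter and receptor genes of these cells: Cldn5, Ocln, Slc2a1, Pecam1, Flt1, Kdr, Tek, Ly6c1, Abcb1a and Abcg2. All 10 were found by symbol among the 33000 genes of the count table. Claudin 5 and occludin, the products of Cldn5 and Ocln, sit in the tight junction strands. PECAM1 is an adhesion molecule at endothelial contacts, and Ly6c1 encodes a surface antigen of the mouse brain endothelium. GLUT1, the product of Slc2a1, carries glucose across the barrier, while P-glycoprotein (Abcb1a) and the breast cancer resistance protein (Abcg2) are efflux pumps. Flt1 and Kdr encode receptors for vascular endothelial growth factor, and Tek encodes TIE2, the receptor for angiopoietins.

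The libraries were made with 3'Pool-seq, which primes reverse transcription with oligo-dT and sequences the 3' ends of mRNAs. Total RNA came from the frontal cortex of 3 month old C57BL/6 mice, wild type (WT) or homozygous for GFAP-IL6, a transgene that expresses the cytokine interleukin 6 under the astrocyte promoter GFAP, with no treatment named for either group. Either 50, 10, 1 or 0.5 ng of RNA entered the reverse transcription, with 4 replicates in each of the 8 groups and 32 libraries in all. The replicates carry the same numbers at each input, and whether one RNA was diluted was not stated, so the 4 inputs were not taken as independent samples. P-values measure the spread between these libraries.

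The depth of a library was the sum of its gene counts, and levels are given as CPM, the counts in every 1000000 of that sum. The totals ran from 261378 to 9840302 counts, and the medians were 3603629 counts for 50 ng, 4463016 for 10 ng, 1457725 for 1 ng and 1428120 for the 0.5 ng input. In each of the 8 groups replicate 2 was the shallowest library and replicate 4 the deepest, so the replicate number went with depth in both genotypes. Limits set by counts cover counting error only, since no molecular identifiers were read. In the check of the labels at 50 ng, Il6 stood between 0 and 0.277 CPM in the 4 WT libraries and between 0.717 and 8.40 CPM in the 4 GFAP-IL6 libraries. At 1 ng Il6 did not follow the labels, with 13 counts (10.4 CPM) in WT replicate 3 and 0 in GFAP-IL6 replicates 2 and 3. At 0.5 ng no count of Il6 was seen in any library, so at these 2 inputs it did not check the labels. Gfap rose 4.59-fold at 50 ng (log2 fold change 2.20 ± 0.27 SE, edgeR adjusted p = 0.000113). GFAP-IL6 replicate 4 stood apart from the other GFAP-IL6 libraries at 50 ng, with the lowest Il6 (0.717 CPM) and the lowest Gfap (30.6 CPM). Of the WT libraries, replicate 3 held 3355 CPM of Ttr, a choroid plexus gene, where the other WT libraries at 50 ng held between 52.7 and 111 CPM.

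The spans of the 10 genes on GRCm38, the build also called mm10 to which the authors aligned the reads, are taken from a later GENCODE release than the one used for counting. These spans are chr16:18776847-18778262 (+) for Cldn5, chr13:100496507-100552718 (-) for Ocln, chr4:119108711-119137983 (+) for Slc2a1, chr11:106654217-106750628 (-) for Pecam1, chr5:147561604-147726011 (-) for Flt1, chr5:75932827-75978458 (-) for Kdr, chr4:94739289-94874976 (+) for Tek, chr15:75044018-75048830 (-) for Ly6c1, chr5:8660077-8748575 (+) for Abcb1a and chr6:58584523-58695676 (+) for Abcg2. All are annotated as protein coding. Exons of Slc2a1 and Abcb1a share bases with an annotated gene on the opposite strand, but no nearer than 4024 and 14836 bases to the 3' end of the gene, away from where these reads start. The counting was not stated to use strand. In the last 500 bases of the coding transcripts, no 70-base window of the other 9 genes occurred in a transcript of another gene, while Ly6c1 shared 55 of 431 windows (12.8%) of its longest transcript with Ly6c2. Over its 7 annotated transcripts the share ran from 0.696% to 48.6%, and short ones shared windows with Ly6a as well, so the Ly6c1 count is uncertain to that extent. Ly6c2 itself was listed at 0 to 5 counts in every library, while Ly6a was abundant (48.1 to 123 CPM at 50 ng).

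RefSeq start regions (GRCm38.p6, 250 bases before to 50 after the start) were on hand for 9 of the 10 genes, with 13 start regions in all. Those of Flt1 and Slc2a1 and 1 of those of Ly6c1 are shown, because these 3 genes had the lowest p-values of the 10 between genotypes at 10 ng. They are printed 5' to 3' on the gene's strand, and the capitals mark CG dinucleotides.
Flt1, chr5:147725962-147726261 (-): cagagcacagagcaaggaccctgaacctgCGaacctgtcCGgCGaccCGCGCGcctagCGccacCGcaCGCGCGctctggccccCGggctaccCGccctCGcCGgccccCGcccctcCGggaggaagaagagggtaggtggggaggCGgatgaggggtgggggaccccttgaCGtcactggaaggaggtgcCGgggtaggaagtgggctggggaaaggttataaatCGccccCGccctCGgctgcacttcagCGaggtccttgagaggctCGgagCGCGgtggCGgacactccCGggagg
Slc2a1, chr4:119108495-119108794 (+): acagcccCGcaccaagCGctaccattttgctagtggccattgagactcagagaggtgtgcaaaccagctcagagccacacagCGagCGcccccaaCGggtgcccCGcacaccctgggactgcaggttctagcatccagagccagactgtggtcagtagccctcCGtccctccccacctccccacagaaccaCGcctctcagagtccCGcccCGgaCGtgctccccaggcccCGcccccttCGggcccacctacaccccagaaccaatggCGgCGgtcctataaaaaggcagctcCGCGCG
Ly6c1, chr15:75048788-75049087 (-): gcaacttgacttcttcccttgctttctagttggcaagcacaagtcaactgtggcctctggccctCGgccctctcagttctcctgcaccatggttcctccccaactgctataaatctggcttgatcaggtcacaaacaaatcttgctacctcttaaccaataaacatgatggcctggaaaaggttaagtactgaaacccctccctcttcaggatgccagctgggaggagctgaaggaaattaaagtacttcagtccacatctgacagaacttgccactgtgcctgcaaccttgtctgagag
The start regions of Flt1 and Slc2a1 are rich in CG dinucleotides, with 29 and 18 of them against a median of 7 over all 32851 start regions of the table. The Ly6c1 region shown held 1, and its other region (chr15:75048614-75048913) held 0. The 3 motifs below were searched on both strands. The STAT core TTCNNNGAA, bound by the factors that carry the interleukin 6 signal, was in none of the 13 regions and in 8.30% of all start regions. The hypoxia response core ACGTG was in the Slc2a1 region, from base 215 to 219, and in 19.6% of all regions. The ETS core CCGGAA, a site of endothelial transcription factors, was in the Kdr region and in 14.9% of all regions. It was also in the Ocln region chr13:100552669-100552968, but not in the other Ocln region. No read of these libraries bears on a start region, because the reads come from the other end of the transcript.

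The comparison of genotypes asks whether these genes differ between GFAP-IL6 and WT cortex at the same RNA input. At 50 ng, mean CPM was higher in GFAP-IL6 than in WT for each of the 10 genes, against 54.1% of all genes with a count, but none passed the test. Of the genes that could be tested, Flt1 and Abcb1a differed by a little over 2-fold and the others by less. A gene passed at an adjusted p under 0.05 in edgeR's quasi-likelihood test with Benjamini-Hochberg adjustment over all genes tested. Of 8 members with enough counts to be tested (Pecam1 and Tek had too few), 0 passed at 50 ng, where 0.28% of 11773 genes did. At an unadjusted p under 0.05, 4 of the 8 passed (Flt1, Abcb1a, Slc2a1 and Ly6c1), against 5.63% of all genes tested, and DESeq2 also called 0. The median log2 fold change of the 8 was 0.56, against -0.0034 over all genes tested.

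At 10 ng the picture was alike in size, and again no gene passed. Mean CPM was higher in GFAP-IL6 for each of the 10 genes, against 53.8% of all genes with a count. With 1 library left out, this held for 8 to 10 of the genes at 10 ng, and for all 10 at 50 ng. Of 9 members tested (all but Pecam1), 0 passed, where 0.332% of 12043 genes did, and DESeq2 called 0. At an unadjusted p under 0.05, 3 passed (Flt1, Ly6c1 and Slc2a1), against 7.48% of all genes. The median log2 fold change of the 9 was 0.60, against 0.0034 over all genes tested. Libraries at 50 and 10 ng carry the same replicate numbers, and the 10 ng values are not independent support for those at 50 ng. In bulk RNA, a change in the share of endothelial cells and a change in RNA per cell cannot be told apart.

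**Figure D1:**
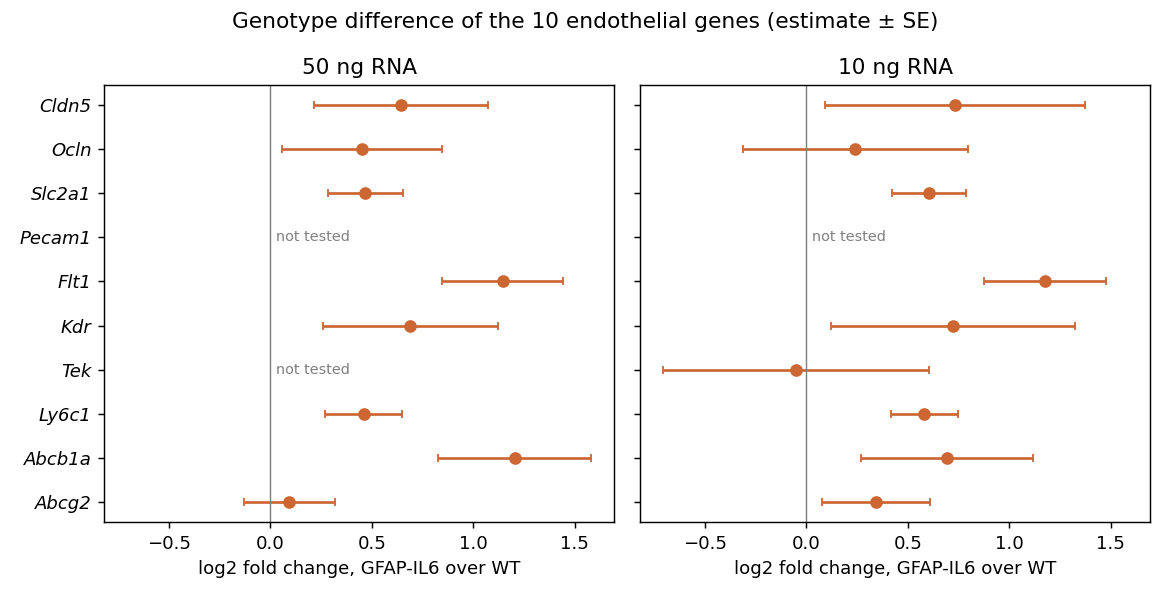
Log2 fold change (GFAP-IL6 over WT) of the 10 endothelial genes at 50 ng (left) and 10 ng (right); points are edgeR estimates and bars ± 1 SE, from 4 libraries of each genotype. The 8 estimates at 50 ng are above 0, from 0.09 for Abcg2 to 1.20 for Abcb1a, and Tek at -0.05 is the 1 estimate below 0 at 10 ng.

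Of the growth factor receptors, Flt1 had the lowest p of the 10 genes at both inputs. FLT1 binds vascular endothelial growth factor with high affinity and signals weakly. At 50 ng its CPM was 14.1, 15.8, 15.3 and 21.5 in WT replicates 1 to 4. In the GFAP-IL6 replicates it was 26.9, 27.1, 25.1 and 70.4. The groups did not overlap, and replicate 4 of GFAP-IL6 stood far above the rest. The fold was 2.21 (log2 fold change 1.14 ± 0.30 SE, edgeR adjusted p = 0.187). At 10, 1 and 0.5 ng the same replicate number of GFAP-IL6 read 52.8, 35.0 and 48.1 CPM, the highest of its group at 1 and 0.5 ng. Without GFAP-IL6 replicate 4, the log2 fold change at 50 ng was 0.59 (edgeR adjusted p = 0.451).

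At 10 ng, Flt1 read 24.1, 15.2, 11.9 and 13.2 CPM in WT, and 21.2, 55.4, 22.6 and 52.8 CPM in GFAP-IL6. Here the groups overlapped, with GFAP-IL6 replicates 1 and 3 below WT replicate 1. The log2 fold change was 1.18 ± 0.30 SE (edgeR adjusted p = 0.0868). Flt1 passed at 10 ng when WT replicate 1 (adjusted p = 0.0308), GFAP-IL6 replicate 1 (adjusted p = 0.0274) or GFAP-IL6 replicate 3 (adjusted p = 0.0103) was left out. With the filter on low counts removed, Flt1 passed at both inputs (edgeR adjusted p = 0.000679 at 50 ng and 0.00289 at 10 ng), among 93 of 18948 and 64 of 18383 genes. With the replicate numbers as a block it also passed at both (edgeR adjusted p = 0.0218 and 0.0140), among 39 of 11773 and 77 of 12043 genes.

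Kdr, the main signalling receptor of the pathway, was a low gene in these libraries. At 50 ng its mean was 3.30 ± 1.20 CPM in WT against 5.18 ± 2.31 CPM in GFAP-IL6 (SD, n = 4), and the groups overlapped. The log2 fold changes of 0.69 ± 0.43 SE at 50 ng and 0.72 ± 0.60 SE at 10 ng did not pass (edgeR adjusted p = 0.835 and 0.809). Tek was lower still, at 1.98 ± 0.345 CPM in WT and 3.21 ± 1.80 CPM in GFAP-IL6 at 50 ng. At 10 ng its estimate was -0.05 ± 0.65 SE, an error that allows a change in either direction.

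Among the transporters, Slc2a1 was the most abundant. At 50 ng it read 54.8, 51.9, 72.3 and 50.5 CPM in the WT replicates and 71.8, 103, 86.5 and 68.5 CPM in the GFAP-IL6 replicates. WT replicate 3 lay above GFAP-IL6 replicates 1 and 4, so the groups overlapped. The log2 fold change was 0.47 ± 0.19 SE (edgeR adjusted p = 0.786). At 10 ng the WT values were 46.5, 49.5, 39.7 and 41.7 CPM and the GFAP-IL6 values 62.5, 74.2, 78.5 and 60.9 CPM. These groups did not overlap, and the log2 fold change of 0.60 ± 0.18 SE still missed the threshold (edgeR adjusted p = 0.263).

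Abcb1a had the largest fitted fold of the 8 members tested at 50 ng. It read 1.94, 4.51, 5.84 and 3.71 CPM in WT and 7.53, 7.46, 7.38 and 13.6 CPM in GFAP-IL6. The groups did not overlap, replicates 1 to 3 of GFAP-IL6 lay close together, and replicate 4 was the highest. The log2 fold change was 1.20 ± 0.38 SE (edgeR adjusted p = 0.476), and 0.91 without GFAP-IL6 replicate 4. At 10 ng, WT read 5.76, 4.62, 4.29 and 5.46 CPM and GFAP-IL6 read 7.87, 8.45, 6.54 and 10.6 CPM. Again no WT library reached the lowest GFAP-IL6 library, with a log2 fold change of 0.69 ± 0.42 SE (edgeR adjusted p = 0.744). These values rest on 6 to 104 counts per library. Abcb1b, the second mouse gene for P-glycoprotein, read 2.59 ± 0.764 CPM in WT and 2.90 ± 1.45 CPM in GFAP-IL6 at 50 ng, with overlapping groups and a log2 fold change of 0.24 ± 0.44 SE (edgeR adjusted p = 0.919).

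Abcg2 showed the smallest difference of those tested at 50 ng. Its mean was 27.2 ± 5.16 CPM in WT and 30.6 ± 6.89 CPM in GFAP-IL6 (SD, n = 4), and the fitted log2 fold change was 0.09 ± 0.22 SE (edgeR adjusted p = 0.936). At 10 ng the log2 fold change was 0.34 ± 0.27 SE (edgeR adjusted p = 0.795). Replicate 4 of GFAP-IL6, which had the highest Flt1 and Abcb1a at 50 ng, had the lowest Abcg2 of the 8 libraries there, at 20.4 CPM.

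Ly6c1 was the highest of the 10 genes in counts. At 50 ng it read 84.96, 71.5, 93.2 and 87.6 CPM in WT and 119, 146, 139 and 79.0 CPM in GFAP-IL6. GFAP-IL6 replicates 1 to 3 lay above every WT library, and replicate 4 lay within the WT range. The log2 fold change was 0.46 ± 0.19 SE (edgeR adjusted p = 0.825). Without GFAP-IL6 replicate 4 it was 0.63, and Ly6c1 passed (edgeR adjusted p = 0.00341). At 10 ng the WT libraries read 75.1, 83.2, 70.7 and 70.3 CPM and the GFAP-IL6 libraries 123, 84.5, 143 and 102 CPM. The groups did not overlap, although GFAP-IL6 replicate 2 lay just above WT replicate 2, and the log2 fold change was 0.58 ± 0.17 SE (edgeR adjusted p = 0.195).

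**Figure D2:**
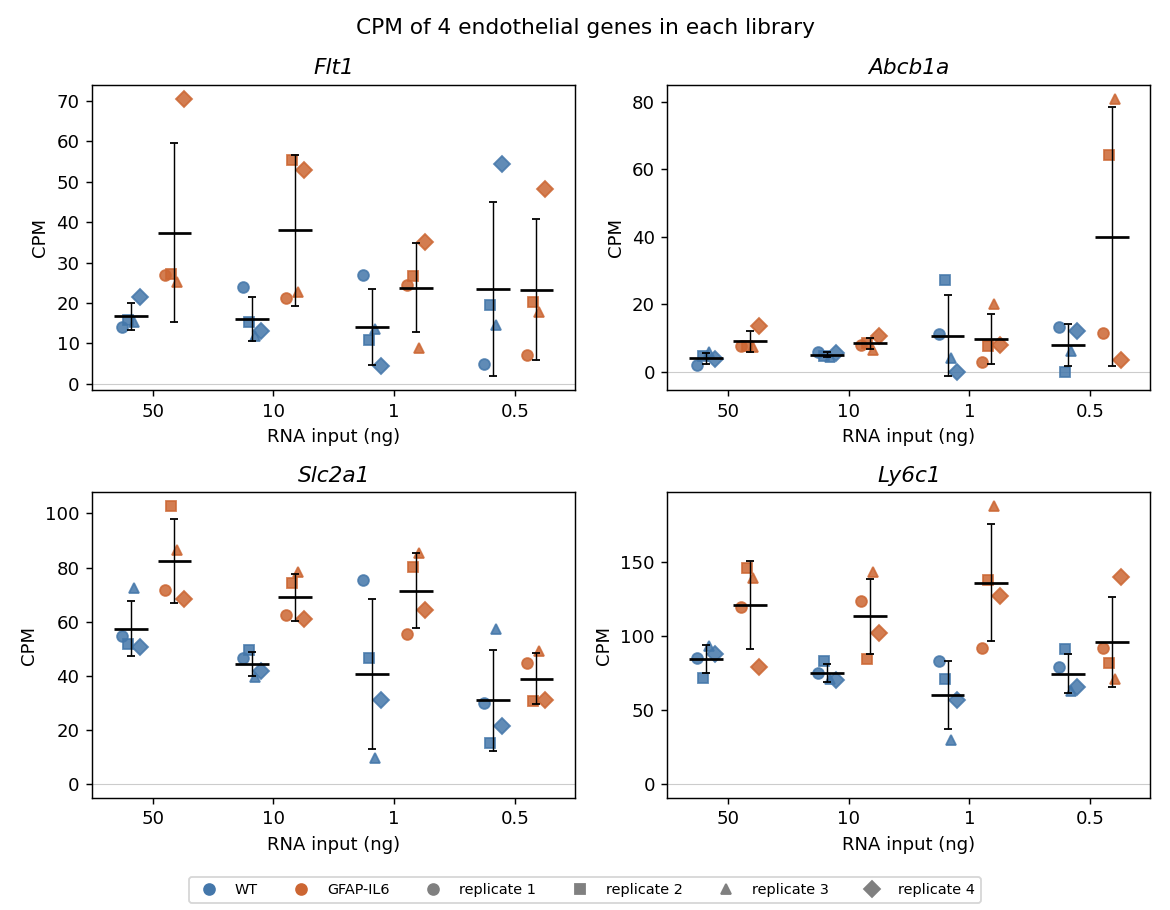
CPM of Flt1, Abcb1a, Slc2a1 and Ly6c1 in each of the 32 libraries against RNA input, WT in blue and GFAP-IL6 in orange, with the shape of a point giving its replicate number and black lines the mean ± SD of 4 libraries. The GFAP-IL6 diamond at 50 ng (replicate 4) is the highest for Flt1, at 70.4 CPM, and the lowest for Ly6c1 within its group, at 79.0 CPM.

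The tight junction and adhesion genes were near the limit of these libraries. Cldn5 was seen at 3 to 25 counts per library at 50 ng, and its means were 2.25 ± 0.510 CPM in WT and 3.32 ± 0.959 CPM in GFAP-IL6. Its log2 fold change was 0.64 ± 0.43 SE at 50 ng (edgeR adjusted p = 0.836) and 0.73 ± 0.64 SE at 10 ng (edgeR adjusted p = 0.818). Ocln read 4.09 ± 1.37 CPM in WT and 5.83 ± 2.89 CPM in GFAP-IL6 at 50 ng, with a log2 fold change of 0.45 ± 0.40 SE (edgeR adjusted p = 0.841). The groups overlapped for both junction genes at both inputs. Pecam1 was too low to be tested at any single input. At 50 ng its WT libraries held 2, 1, 0 and 5 counts (0 to 0.752 CPM) and its GFAP-IL6 libraries 9, 2, 9 and 5 counts (0.896 to 2.61 CPM). The groups did not overlap in CPM, on 8 counts in WT and 25 in GFAP-IL6.

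Of the members tested, Flt1 and Abcb1a at 50 ng and Slc2a1, Ly6c1 and Abcb1a at 10 ng had every GFAP-IL6 library above every WT library. That was 2 of 8 and 3 of 9, beside 2.17% and 2.77% of all genes tested at those inputs. At 1 ng this held for Ly6c1 among the 5 members tested (1.68% of all genes), and at 0.5 ng for 0 of the 4 tested (1.47% of all genes). Of the members not tested, it also held for Pecam1 at 50 ng and for Cldn5 and Abcg2 at 0.5 ng, which these shares do not cover.

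At 1 ng the spread between libraries was wider, with a biological coefficient of variation of 0.519 in edgeR, against 0.214 at 50 ng and 0.238 at 10 ng. Of the 5 members tested (Slc2a1, Flt1, Ly6c1, Abcb1a and Abcg2), 0 passed by edgeR or DESeq2, where 0.0323% of 9276 genes passed, and 1 was under an unadjusted p of 0.05, against 3.59% of all genes. That gene was Ly6c1, at 83.1, 71.0, 29.7 and 56.4 CPM in WT and 91.5, 138, 187 and 127 CPM in GFAP-IL6. Each GFAP-IL6 library lay above each WT library, and the log2 fold change was 1.15 ± 0.34 SE (edgeR adjusted p = 0.997). The estimates of Slc2a1 (0.78 ± 0.48 SE) and Flt1 (0.76 ± 0.74 SE) were positive, and those of Abcb1a (-0.04 ± 1.20 SE) and Abcg2 (-0.10 ± 0.61 SE) were near 0. Mean CPM was higher in GFAP-IL6 for 5 of the 10 genes, against 51.2% of all genes with a count, and for 8 of the 10 without WT replicate 2.

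At 0.5 ng the coefficient was 0.767. Of the 4 members tested (Slc2a1, Flt1, Ly6c1 and Abcb1a), 0 passed by edgeR, where 0.0117% of 8571 genes passed, and 0 were under an unadjusted p of 0.05, against 2.87% of all genes. DESeq2 called 1 (Abcg2, described with the losses at low input), where it called 21 of 14594 genes. Slc2a1 stood at 30.9 ± 18.5 CPM in WT and 38.9 ± 9.47 CPM in GFAP-IL6, and Ly6c1 at 74.5 ± 13.2 CPM and 95.8 ± 30.5 CPM (SD, n = 4). Flt1 read 23.4 ± 21.5 CPM in WT and 23.3 ± 17.5 CPM in GFAP-IL6, a log2 fold change of -0.05 ± 1.0 SE. Mean CPM was higher in GFAP-IL6 for 7 of the 10 genes, against 52.4% of all genes with a count.

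When the counts of same-numbered libraries were summed over the 4 inputs, 1 of the 10 genes passed, against 0.468% of 13450 genes. Ly6c1 was the gene, with a log2 fold change of 0.58 ± 0.14 SE (edgeR adjusted p = 0.0461). The call was lost without any 1 of the 4 WT replicates or of GFAP-IL6 replicates 1, 2 and 3 (log2 fold changes from 0.51 to 0.61), and was kept without GFAP-IL6 replicate 4 (0.63, edgeR adjusted p = 0.0110). At an unadjusted p under 0.05 there were 6 of 10, against 7.9% of all genes: Ly6c1, Abcb1a (1.16 ± 0.30 SE), Flt1 (0.93 ± 0.26 SE), Slc2a1 (0.54 ± 0.15 SE), Cldn5 (1.23 ± 0.46 SE) and Pecam1 (1.45 ± 0.58 SE), each a log2 fold change. Abcb1a passed without GFAP-IL6 replicate 1 (edgeR adjusted p = 0.0447) and Flt1 without GFAP-IL6 replicate 3 (edgeR adjusted p = 0.0339). In these sums the estimates of Ocln (0.01 ± 0.40 SE) and Kdr (-0.05 ± 0.45 SE) were near 0.

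Further genes of the endothelium and its neighbours were taken as 16 lists of 123 genes. The 9 further junction genes, of which 7 were tested at 50 ng, held 0 that passed, with a median log2 fold change of 0.35, and F11r (1.16 ± 0.45 SE, edgeR adjusted p = 0.765) and Lsr (0.90 ± 0.36 SE, edgeR adjusted p = 0.786), both coding for cell junction proteins, had the lowest p. Of 11 further transport genes, 10 were tested and 0 passed, and the lipid carrier gene Mfsd2a read 0.58 ± 0.27 SE (edgeR adjusted p = 0.835). The list of vascular endothelial growth factor, angiopoietin and endoglin signalling held 7 tested genes, 0 passing and a median of 0.40. Its lowest p was that of Ptprb, a phosphatase that acts on TIE2 (1.19 ± 0.33 SE, edgeR adjusted p = 0.255). The ligand gene Vegfa followed at 0.55 ± 0.25 SE (edgeR adjusted p = 0.835). Of the Wnt and norrin genes, which maintain the barrier, 8 were tested and 0 passed, with a median of 0.24. At 10 ng 0 passed in each of these 4 lists as well, and the lowest p-values were those of Lsr (0.71 ± 0.35 SE), Slco1a4 (0.75 ± 0.28 SE), Nrp1 (0.37 ± 0.20 SE) and Lef1 (0.97 ± 0.52 SE).

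The endothelial genes that passed lay in the lists of activation and identity. The lists were chosen with earlier results of these data known, so where these genes fall was not a test of activation. Lrg1, coding for a secreted glycoprotein that acts on vessels and is also made by other cells, read 8.36 to 15.0 CPM in WT and 20.1 to 69.9 CPM in GFAP-IL6 at 50 ng. It rose with a log2 fold change of 2.13 ± 0.31 SE at 50 ng (edgeR adjusted p = 0.00104) and 1.98 ± 0.26 SE at 10 ng (edgeR adjusted p = 1.33e-05), and was lowest in GFAP-IL6 replicate 4 of the GFAP-IL6 libraries at both inputs. Vwf, coding for von Willebrand factor, rose at 10 ng (2.49 ± 0.57 SE, edgeR adjusted p = 0.0306), with WT libraries between 0.660 and 2.27 CPM and GFAP-IL6 libraries between 3.94 and 10.3 CPM. At 50 ng its estimate was 2.22 (edgeR adjusted p = 0.116), and DESeq2 called it (adjusted p = 0.0311). Ly6a, a surface antigen gene of the Ly6 family to which Ly6c1 also belongs, rose at 10 ng (0.78 ± 0.17 SE, edgeR adjusted p = 0.0264), with every GFAP-IL6 library (87.4 to 114 CPM) above every WT library (47.4 to 71.3 CPM). Its estimate at 50 ng was 0.72 ± 0.19 SE (edgeR adjusted p = 0.225), and without GFAP-IL6 replicate 4 it was 0.88 and passed. At 10 ng the Vwf call was lost in 7 of the 8 fits without a library (all but that without GFAP-IL6 replicate 1) and the Ly6a call in 4 of 8 (without WT replicate 1, 3 or 4 or GFAP-IL6 replicate 1). In 1 fit of all 32 libraries, none of the 3 genes passed at 10 ng and Lrg1 did not pass at 50 ng. That fit called only 3 of 12164 genes at 50 ng and 4 of 12164 at 10 ng. Its biological coefficient of variation was 0.5265, against 0.2145 and 0.2379 in the fits of those inputs alone.

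Genes of cells next to the endothelium were read beside it. The summed level of the 10 mural cell genes, which mark pericytes and smooth muscle, was 121 to 136 CPM in WT and 172 to 200 CPM in GFAP-IL6 at 50 ng, and 127 to 134 CPM and 158 to 169 CPM at 10 ng, with no overlap at either input. Of 8 mural genes tested 0 passed at either input, with 8 positive at 50 ng (median log2 fold change 0.53) and 5 positive at 10 ng (median 0.15). Most of the difference in the 10 ng sums lay in the pericyte gene Rgs5, at 37.2 ± 5.29 CPM in WT and 65.6 ± 16.6 CPM in GFAP-IL6 (SD, n = 4), with a log2 fold change of 0.78 ± 0.21 SE (edgeR adjusted p = 0.105). The 10 endothelial genes themselves summed to 175 to 230 CPM in WT and 271 to 334 CPM in GFAP-IL6 at 50 ng, and to 171 to 184 CPM and 259 to 303 CPM at 10 ng. Most of the difference in these sums lay in Ly6c1, Slc2a1 and Flt1 at both inputs. Their means at 50 ng were 84.3, 57.4 and 16.7 CPM in WT and 121, 82.3 and 37.4 CPM in GFAP-IL6. The sums therefore do not show a shift of the whole set. The sums of the 9 further junction genes did not overlap at either input. Their highest WT sum and lowest GFAP-IL6 sum were 124 and 130 CPM at 50 ng and 130 and 133 CPM at 10 ng. The activation list overlapped at 50 ng only. The transport list, the growth factor and angiopoietin list and the Wnt and norrin list overlapped at both inputs. The 10 endothelial identity genes also summed to overlapping ranges at 50 ng (WT libraries between 523 and 750 CPM, GFAP-IL6 libraries between 476 and 908 CPM). Microglial genes summed to 453 to 508 CPM and 508 to 968 CPM, and C1qb, coding for a complement subunit, rose 1.10 ± 0.22 SE on the log2 scale at 50 ng (edgeR adjusted p = 0.0235). At 10 ng C1qb (1.11 ± 0.16 SE, edgeR adjusted p = 7.04e-05) and Aif1, a microglial calcium binding protein gene (0.87 ± 0.19 SE, edgeR adjusted p = 0.0238), both rose. The part of the mural and microglial genes in the endothelial values was not tested.

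The other lists held 0 genes that passed between genotypes at 50 or 10 ng. Their summed levels at 50 ng overlapped between WT and GFAP-IL6 for astrocyte genes (2984 to 3530 and 3231 to 4229 CPM), neuronal genes (5829 to 6587 and 5609 to 6251 CPM), oligodendrocyte genes (4962 to 6784 and 3364 to 7026 CPM), red cell genes (346 to 509 and 265 to 496 CPM), fibroblast genes (19.5 to 49.6 and 26.5 to 38.0 CPM) and choroid plexus genes (59.4 to 3397 and 64.3 to 346 CPM). Genes of blood leukocytes summed to at most 11.1 CPM, with 2 of 7 at 0 in WT and 1 in GFAP-IL6, and those of perivascular macrophages to at most 6.02 CPM at 50 ng.

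The comparison of inputs asks which of the 10 genes keep their level when less RNA is used. At 10 ng none of the members tested passed, while at 1 and 0.5 ng several low genes had no count in many libraries. Kdr had none in 7 of 8 at 1 ng, and Tek none in 6 of 8 at both inputs. Abcg2, not a low gene at 50 ng, had none in the 4 WT libraries at 0.5 ng. Other genes were high in 1 or a few libraries. Of the 80 pairs of a gene and a library at each input, a count was seen in 79 with 50 ng, 77 with 10 ng, 55 with 1 ng and 57 with 0.5 ng. With every library thinned to 261378 counts, the same numbers were 58, 55, 50 and 48. The single pair without a count at 50 ng was Pecam1 in WT replicate 3.

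**Figure D3:**
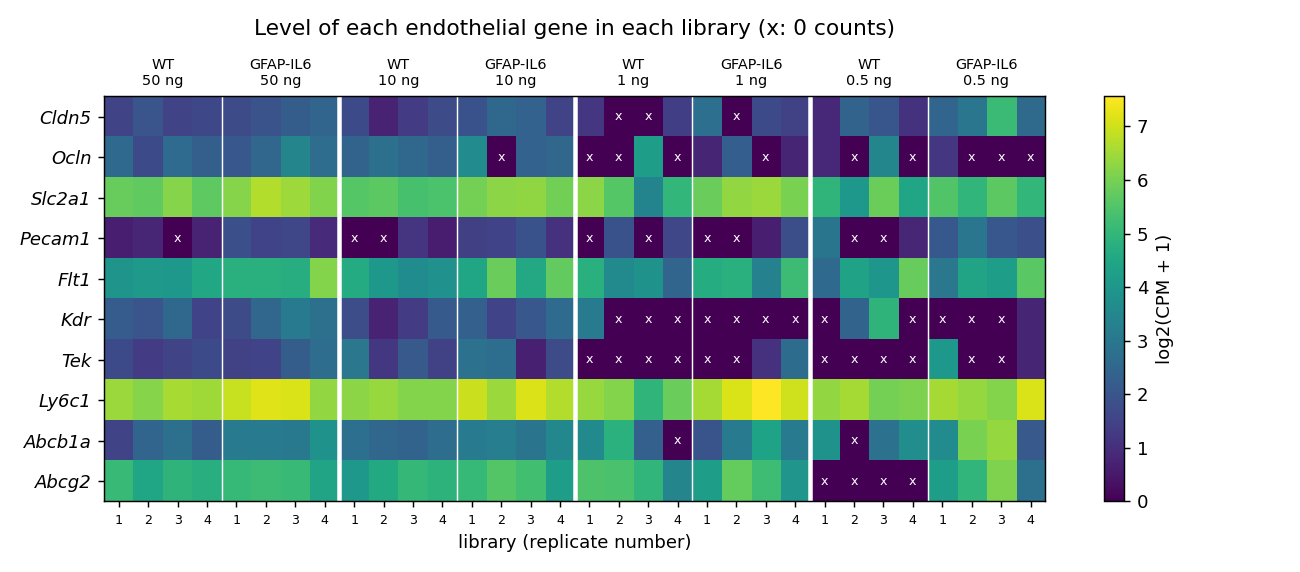
Level of the 10 endothelial genes (rows) in the 32 libraries (columns, ordered by RNA input, genotype and replicate) as log2(CPM + 1), with a white x where no count was seen. The x marks are 1 at 50 ng and 3 at 10 ng, and 25 at 1 ng and 23 at 0.5 ng, most of them for Kdr, Tek, Ocln and Pecam1 besides the 4 WT libraries without Abcg2 at 0.5 ng.

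In the fit of 10 against 50 ng with genotype as covariate, 0 of the 9 members tested passed by edgeR or DESeq2, where 0% of 12599 genes passed. That fit did not use the replicate numbers, and with them as a block 155 of the 12599 genes passed and still 0 of the 9 members. At an unadjusted p under 0.05 there was 1, against 4.36% of all genes: Slc2a1, at 69.9 ± 18.1 CPM at 50 ng and 56.7 ± 14.7 CPM at 10 ng (SD, n = 8, log2 fold change -0.29 ± 0.12 SE, edgeR adjusted p = 0.9997). Of Ly6c1 and Abcg2, with errors of 0.12 and 0.18, the estimates were -0.10 and -0.01. The difference in genotype effect between 10 and 50 ng was tested as an interaction term. It passed for 0 of the 9 genes by edgeR or DESeq2, with 0 under an unadjusted p of 0.05, where 0% of 12599 genes passed and 1.38% were under the unadjusted p. The differences of effect were 0.02 ± 0.47 SE for Flt1, 0.12 ± 0.25 SE for Slc2a1, 0.10 ± 0.26 SE for Ly6c1 and -0.51 ± 0.53 SE for Abcb1a on the log2 scale.

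At 1 against 50 ng, 0 of the 7 members tested passed by edgeR or DESeq2, where 1.14% of 11290 genes passed, and 1 was under an unadjusted p of 0.05, against 11.2% of all genes. That gene was Kdr, seen in 8 of 8 libraries at 50 and 10 ng and in 1 of 8 at 1 ng, with 12 counts in WT replicate 1. At its 50 ng level in each genotype, 50.8 counts would have come from the 8 libraries at 1 ng. Up to 14.5 of these would have come from 1 library that showed none. Its log2 fold change was -2.07 ± 0.95 SE (edgeR adjusted p = 0.409), and without replicate 1 it passed (edgeR adjusted p = 0.0347). Tek was seen in 2 of 8 libraries and Ocln in 4 of 8, and 22 of the 26 counts of Ocln were in WT replicate 3. The 4 genes above 25 CPM at 50 ng (Ly6c1, Slc2a1, Abcg2 and Flt1) were seen in all 8 libraries. Their 1 ng estimates were -0.09 ± 0.20 SE, -0.29 ± 0.25 SE, 0.06 ± 0.31 SE and -0.41 ± 0.36 SE on the log2 scale. The genotype effect of 0 of the 7 differed from that at 50 ng by edgeR or DESeq2, where 0% of 11290 genes passed, and 1 (Kdr) was under an unadjusted p of 0.05, against 4.17% of all genes.

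At 0.5 against 50 ng, edgeR passed 0 of the 8 members tested, where 1.68% of 11406 genes passed, and 3 were under an unadjusted p of 0.05, against 11.7% of all genes. Slc2a1 was one of them, at 34.9 ± 14.3 CPM at 0.5 ng against 69.9 ± 18.1 CPM at 50 ng (SD, n = 8, log2 fold change -0.91 ± 0.28 SE, edgeR adjusted p = 0.105). Of the 8 libraries at 0.5 ng, 431 counts of Slc2a1 came where its 50 ng level in each genotype would have given 855. Abcb1a went the other way (1.65 ± 0.66 SE, edgeR adjusted p = 0.286), with 64.4 and 81.0 CPM in GFAP-IL6 replicates 2 and 3 and at most 13.3 CPM in the other 6 libraries. DESeq2 called 3 of the members, Slc2a1 (-0.86, adjusted p = 0.00438), Abcg2 (-2.65, adjusted p = 0.0205) and Abcb1a (1.71, adjusted p = 0.0483), where it called 773 of 19106 genes. In 1 fit of all 32 libraries Slc2a1 (-0.90, edgeR adjusted p = 0.0334) and Abcg2 (-4.64, edgeR adjusted p = 9.55e-05) passed, where 818 of 12164 genes did.

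Abcg2 gave the sharpest split of the 10 genes at 0.5 ng. It had no count in any of the 4 WT libraries. At its mean 50 ng level over both genotypes (28.9 CPM) these would have held between 13.3 and 76.0 counts each and 162 in all. At the 50 ng level of WT alone the highest would have been 71.5. The GFAP-IL6 libraries held 28, 9, 129 and 16 counts, or 17.9, 30.5, 67.4 and 5.88 CPM. The groups did not overlap. The pooled level of 28.0 CPM in GFAP-IL6 was 52.2 times the 0.537 CPM that 3 counts over the 4 WT libraries give. This ratio takes in counting error in WT only and is not a lower bound. The spread of Abcg2 within genotypes at 0.5 ng was 124%, against 28.7% from counting. Replicate 3 held 129 of the 182 counts, and without it the pooled level was 11.6 CPM, 21.6 times the same 0.537 CPM. At 1 ng the same WT and GFAP-IL6 numbers overlapped, with 9.81 to 42.6 CPM in WT and 14.3 to 53.6 CPM in GFAP-IL6. The filter left Abcg2 out of the genotype test at 0.5 ng. DESeq2, which does not apply that filter, called it there (adjusted p = 0.00337), among 21 of 14594 genes. So did 1 fit of all 32 libraries (edgeR adjusted p = 1.40e-05), which also called Tek (edgeR adjusted p = 0.0468). That fit called 655 of 12164 genes between genotypes at 0.5 ng, where the fit of this input alone called 1 of 8571. Its biological coefficient of variation was 0.5265, against 0.7666 in the fit of 0.5 ng alone. Tek had 0 counts in WT and 26 in GFAP-IL6 at 0.5 ng, 24 of them in replicate 1. Its pooled GFAP-IL6 level was 7.46 times that of 3 counts over the WT libraries, again not a lower bound. Without replicate 1 the pooled level of Tek was 0.406 CPM, below the 0.537 CPM of 3 counts in WT, so that ratio rests on 1 library. For Abcg2, the test of whether the genotype effect differed from that at 50 ng missed the threshold (edgeR adjusted p = 0.0759), as for all other genes (0% of 11406 passed, 6.65% were under an unadjusted p of 0.05, among them Abcg2 and Kdr of the 8 members). This difference for Abcg2 passed with DESeq2 (adjusted p = 3.73e-05, among 165 of 19106 genes) and without the filter (edgeR adjusted p = 0.0155, the only 1 of 19106 genes). It also passed in 1 fit of all 32 libraries (edgeR adjusted p = 0.00139, among 24 of 12164 genes).

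**Figure D4:**
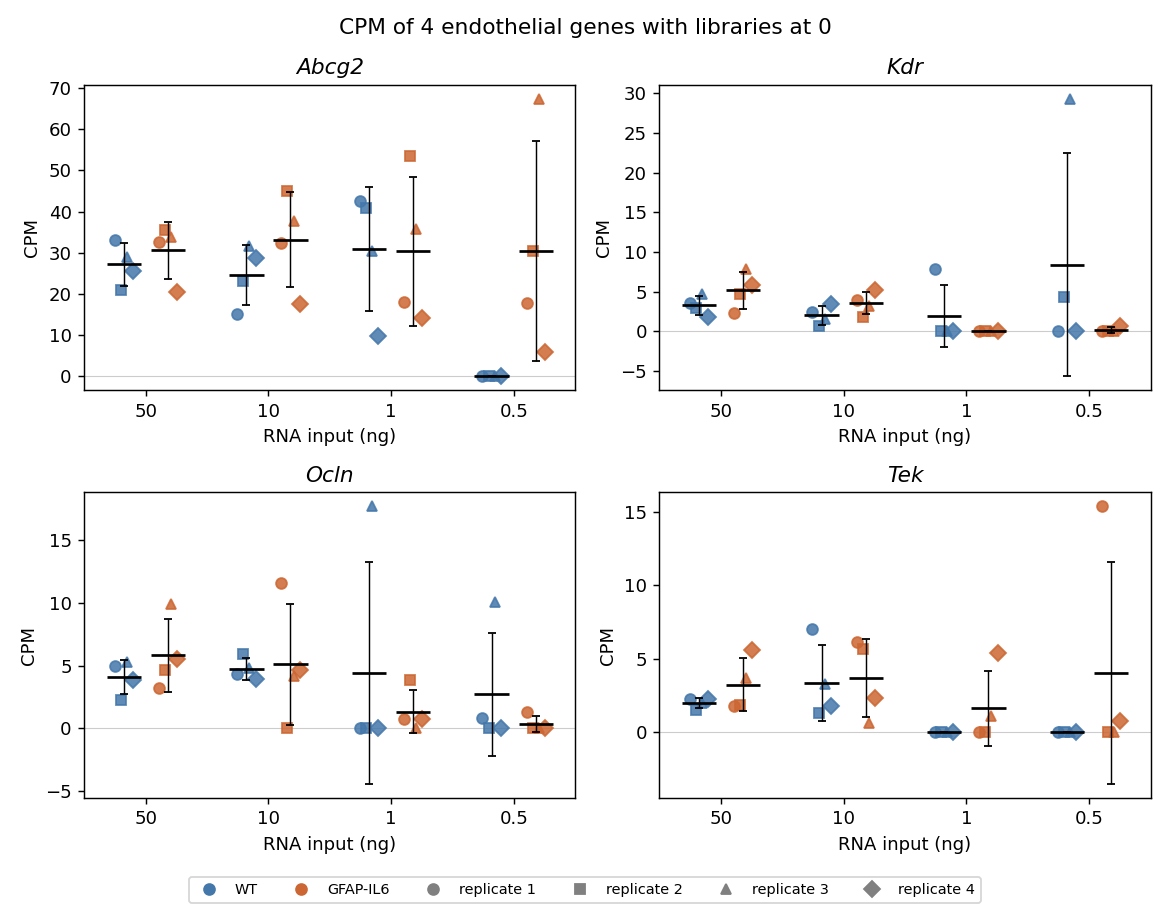
CPM of Abcg2, Kdr, Ocln and Tek in each of the 32 libraries against RNA input, drawn as for the genes above, WT in blue and GFAP-IL6 in orange, with black lines the mean ± SD of 4 libraries. For Abcg2 the 4 WT points at 0.5 ng lie at 0 and the GFAP-IL6 points between 5.88 and 67.4 CPM.

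The spread between libraries of a genotype was wider at 0.5 ng than at 50 ng for the genes given here, and how it compared with counting error differed between them. For Slc2a1 the coefficient of variation within genotypes was 18.8% and 12.2% with 50 and 10 ng, where counting alone would give 7.67% and 7.99%. With 1 and 0.5 ng it was 39.0% and 42.1%, against 15.7% and 16.9% from counting. For Abcg2 it was 21.1% at 50 ng and 124% at 0.5 ng, against 11.6% and 28.7% from counting. Flt1 was spread widely at every input, with 58.3%, 50.9%, 53.9% and 84.0%. Ly6c1 kept the narrowest spread at 0.5 ng, at 27.6% against 11.4% from counting. Of the low genes, Cldn5 stood within its counting error at 50 ng (27.6% against 37.1%) and far outside it at 0.5 ng (137% against 35.9%), where GFAP-IL6 replicate 3 alone held 66 of the 99 counts.

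Red cell genes moved with input as well. At 1 against 50 ng the 4 haemoglobin genes tested rose, among them Hbb-bs (1.16 ± 0.13 SE on the log2 scale, edgeR adjusted p = 1.48e-06) and Hba-a1 (0.82 ± 0.20 SE, edgeR adjusted p = 0.0285). At 0.5 ng Hbb-bs rose (0.77 ± 0.14 SE, edgeR adjusted p = 0.00393). No gene of the other lists passed in any of the 3 input comparisons.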

How the data were processed

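Gene counts of 32 mouse frontal cortex libraries were used. Reads of 70 bases were trimmed of poly(A) by the authors and aligned to mm10 with STAR (version 2.4, per the submitters' processing notes), and featureCounts of the Subread package assigned those with a unique alignment to GENCODE genes. The deposited counts are whole numbers, not normalized, for 33000 genes, and the authors' gene lengths, in bases, were not used for any value. The strand setting of the counting is not given in the sources used here. The notes also name hg19, which the study's methods give for its human libraries.

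Groups came from the genotype and input in the labels. Counts were tested in edgeR 4.0.16 (R 4.3.3; TMM, filterByExpr, quasi-likelihood F test), with a fit for each input (genotype) or pair of inputs (input with genotype as covariate, and an interaction term), two-sided, with Benjamini-Hochberg adjustment over all genes tested and a threshold of 0.05. DESeq2 1.42.0, its size factors, no filter, a replicate block, thinning to 261378 counts, 1 fit of all libraries, sums over inputs and leaving out each replicate were the alternatives. The code was tested on simulated data. Limits from a count of 0 used 3 counts over a group. A count of 0 in a library allowed 0.305 to 11.5 CPM across the 32 totals. No 2 replicates agreed within sampling noise (lowest chi-square per degree of freedom 2.37 over 48 pairs). The counts of 3' ends were not divided by gene length, so levels are compared between libraries for each gene.

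The 10 genes and the 16 lists were chosen with earlier results of these data known. The named genes were all 10 members, Il6 and Gfap, the close copies Ly6c2 and Abcb1b, and of each list the genes that passed (at most 4) or else the 2 with the lowest p.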

Additional observations from a re-analysis of the deposited data

Results flagged for a closer look

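In 12 of 76 groups of 4 libraries, 1 library of a member lay far from the other 3. The gap took up most of the group's range (a rule at the 95% level). Its rate of 1 group in 20 holds for normally distributed values, which low counts are not. A group with no count in 3 libraries meets the rule whatever the other holds. The 12 therefore cannot be set against that rate. Of the 12, 2 fell on 50 ng libraries, 2 on 1 ng libraries, 8 on those of the 0.5 ng input and 0 on 10 ng libraries. Both at 50 ng were GFAP-IL6 replicate 4, with Flt1 at 70.4 CPM and Abcb1a at 13.6 CPM.

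At 1 ng, Ocln stood out in WT replicate 3 at 17.7 CPM and Kdr in WT replicate 1 at 7.86 CPM, and in both groups the other 3 libraries had no count. At 0.5 ng in WT, Ocln stood out in replicate 3 at 10.03 CPM, Kdr in replicate 3 at 29.3 CPM and Pecam1 in replicate 1 at 6.65 CPM. At 0.5 ng in GFAP-IL6, Cldn5 stood out in replicate 3 at 34.5 CPM and Pecam1 in replicate 2 at 6.78 CPM. Tek stood out in GFAP-IL6 replicate 1 at 15.4 CPM, Ocln in replicate 1 at 1.28 CPM and Kdr in replicate 4 at 0.735 CPM, the last 2 on 2 counts each.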

How the results depend on the processing

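The members called moved with the setting as follows. Between genotypes at 50 ng, 1 was called without the filter (Flt1, among 93 of 18948 genes). The replicate block called 1 (Flt1, among 39 of 11773 genes) and the summed inputs 1 (Ly6c1, among 63 of 13450 genes). Without a library 0 to 1 was called (Ly6c1, without GFAP-IL6 replicate 4, among 78 of 11934 genes). At 10 ng, 1 was called without the filter (Flt1, among 64 of 18383 genes) and 1 with inputs summed. The replicate block called 2 (Flt1, edgeR adjusted p = 0.0140, and Ly6c1, edgeR adjusted p = 0.0409), among 77 of 12043 genes. Without a library 0 to 1 was called. This was Flt1, without WT replicate 1 (29 of 12183 genes) or GFAP-IL6 replicate 1 (40 of 12370 genes) or 3 (54 of 12124 genes). At 1 ng, 1 was called with inputs summed. At 0.5 ng, DESeq2 called 1 (Abcg2, among 21 of 14594 genes) and the sums 1. The fit of all 32 libraries called 2 there (Abcg2 and Tek, among 655 of 12164 genes). With inputs summed, 0 to 1 was called without a library, among 50 to 69 genes. Between 1 and 50 ng, 0 to 1 was called without a replicate number (Kdr, without replicate 1, among 49 of 11387 genes). Between 0.5 and 50 ng, DESeq2 called 3 (among 773 of 19106 genes) and 1 fit of all 32 libraries 2 (among 818 of 12164 genes). For the difference of genotype effects at 0.5 ng, no filter, DESeq2 and the 32-library fit called 1 each (Abcg2). These settings called 1 and 165 of 19106 genes and 24 of 12164 genes. The number of members higher in GFAP-IL6 ran from 8 to 10 at 10 ng, 5 to 8 at 1 ng and 7 to 8 at 0.5 ng without a library. The cause of these moves was not tested.

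The replicate numbers were not used as pairs in the main fits, although they went with depth in both genotypes. The deviations from the group means of a WT and a GFAP-IL6 library of one number correlated by 0.0361 to 0.189 (mean 0.118) at 50 ng and 0.0390 to 0.131 (mean 0.0686) at 10 ng. Between genotypes, a block of the numbers lowered the biological coefficient of variation from 0.2145 to 0.1868 at 50 ng and from 0.2379 to 0.2115 at 10 ng. Flt1 passed at both inputs with that block. For the inputs, the block raised the genes called from 0 to 155 at 10 ng, from 129 to 224 at 1 ng and from 192 to 233 at 0.5 ng, with 0 members among them. Libraries of one number at 50 and 10 ng correlated by 0.0772 to 0.237 in WT and 0.0516 to 0.510 in GFAP-IL6, and Ttr in WT replicate 3 was 3355, 3003, 3079 and 3110 CPM at the 4 inputs. The alternatives for the interaction, for the summed counts without a library and for the ratios to 3 counts without a library were chosen after seeing the data.

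Of the values of single genes, 283 kept their direction and side of the threshold, 24 came to pass, 4 ceased to and 19 changed sign; without a library the numbers were 379, 10, 18 and 34. The log2 fold changes that changed sign between genotypes were those of Kdr at 50 and 10 ng (-0.049 summed), Tek at 10 ng (0.020 with DESeq2, 0.080 in the 32-library fit, 0.62 summed), Abcb1a at 1 ng (0.71 with the replicate block, 0.031 in the 32-library fit, 1.16 summed), Abcg2 at 1 ng (0.39 summed) and Flt1 at 0.5 ng (0.13 with the block, 0.93 summed). Between inputs they were Ocln (-0.0194 with the block), Flt1 (0.27 thinned) and Abcg2 (0.0009 in the 32-library fit) at 10 ng, Abcg2 at 1 ng (-0.043 with the block) and Flt1 at 0.5 ng (0.019 with DESeq2 size factors, 0.11 thinned, 0.019 with DESeq2, 0.0018 in the 32-library fit). Without a library, between genotypes, Ocln ran from -0.45 to 0.51 and Tek from -0.60 to 0.62 at 10 ng, Abcb1a from -0.72 to 0.94 and Abcg2 from -0.46 to 0.15 at 1 ng, Flt1 from -0.75 to 0.86 at 0.5 ng, and with inputs summed Ocln from -0.22 to 0.34 and Kdr from -0.24 to 0.35. Against 50 ng, at 10 ng Cldn5 ran from -0.25 to 0.0024, Ocln from -0.34 to 0.37, Flt1 from -0.18 to 0.24, Tek from -0.32 to 0.87, Abcb1a from -0.039 to 0.29 and Abcg2 from -0.074 to 0.16, at 1 ng Abcg2 from -0.18 to 0.27, and at 0.5 ng Flt1 from -0.50 to 0.20.

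Depth limits the low genes. A count of 0 allowed up to 0.305 to 2.82 CPM in a library at 10 ng and up to 1.10 to 10.2 CPM at 0.5 ng, so at 0.5 ng the absence of Pecam1, Tek, Kdr or Ocln from a shallow library does not show that the gene was not expressed.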
